A study of Bos taurus with 6 samples.

Results

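The genes described here are 50 ribosome biogenesis factors, chosen by name, and each name matched a single gene among the 36075 genes listed for the blastocysts. They were compared between blastocysts from oocytes matured in vitro for 22 h with 1e-07 mol/L melatonin (MT-treated, n = 3) and blastocysts from oocytes matured without melatonin (control, n = 3). Each library came from a pool of 3 bovine blastocysts, and the replicates of a group came from 3 separate in vitro production runs. Melatonin was present during oocyte maturation and the RNA was taken later, from blastocysts. The concentration, maturation time, runs and pool size came from the methods of the study, as the sample labels give the group and a replicate number alone. The oocytes came from slaughterhouse ovaries. In pooled whole embryos, fewer cells of a type and less RNA per cell cannot be told apart.

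Ribosomes are built in the nucleolus. RNA polymerase I transcribes a long precursor of the ribosomal RNAs, and small nucleolar ribonucleoproteins (snoRNPs) of the box C/D and box H/ACA classes guide its methylation and pseudouridylation. The small subunit processome, a particle that assembles on the precursor around the U3 snoRNP, releases the pre-40S particle, and a separate set of factors builds the pre-60S particle before both are exported and finished in the cytoplasm. In mammalian embryos the nucleolus starts working when the embryonic genome is activated, and ribosome production accompanies growth up to the blastocyst. The 50 genes were arranged by these roles into 7 groups.

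Expression was given in TPM, which scales a gene's reads to its length and to the library total, so levels can be compared between genes. Such values do not show the read depth, and no counting error could be attached to them. Differences were tested with limma on log2(TPM + 1) over the 11953 genes with at least 1 TPM in at least 3 libraries, with Benjamini-Hochberg adjustment, and a gene was called at an adjusted p-value under 0.05. A log2 difference below is MT-treated minus control on that scale, which understates the change of genes near 0. An exact permutation test of a single gene with 3 libraries against 3 cannot give a p-value below 0.1, so the calls rest on the spread that limma shares across genes.

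The libraries of a group resembled each other, whereas the groups differed across most of the table. Between 8854 and 8953 genes were above 0 in the control libraries, and between 14372 and 14408 in the MT-treated libraries. Among the tested genes 95.7% were called, 61.6% higher and 34.1% lower in MT-treated blastocysts, and the groups did not overlap for 96.1%. Blastocyst markers were present in both groups. The summed level of 8 trophectoderm markers lay between 11460 and 11810 TPM in control and between 10680 and 11030 TPM in MT-treated libraries, although CDX2 was listed at 0 in every control library. KRT8, which made up most of that sum, was lower as deposited (-0.33 on the log2 scale, 0.15 after median centring), and the other 7 were called higher. Of 7 inner cell mass markers, which summed to 460.3 to 465.3 TPM in control and 425.6 to 426.9 TPM in MT-treated libraries, NANOG was at 0 in every control library and SOX2 at or below 0.02 TPM. NANOG, SOX2 and KLF4 were called higher in MT-treated blastocysts, and DPPA3, SALL4 and LIN28B lower. POU5F1 was not called, with means of 190 TPM in control and 193 TPM in MT-treated libraries. Of 6 hypoblast markers, 4 were at 0 in every control library and 1 in every MT-treated library, and the sum was 204.5 to 207.6 TPM in control and 524 to 528 TPM in MT-treated libraries, most of it FN1. The sum of 8 cumulus and granulosa cell markers was 96.1 to 97.7 TPM in control and 96.9 to 99.5 TPM in MT-treated libraries, with 6 and 4 markers at 0 throughout, FOXL2 and INHA among both. Most of this sum was CYP11A1, with means of 78.7 TPM in control and 82.4 TPM in MT-treated libraries. Of 10 maternal oocyte transcripts, 9 were at 0 in every control and 5 in every MT-treated library, and the sum, most of it OOEP, was 45.6 to 49.3 TPM in control and 21.8 to 24.2 TPM in MT-treated libraries. The part of cell composition or of gene detection in the differences below was not tested.

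Of the 50 factors, 49 reached the level for testing, and 10 of these did so through the MT-treated libraries alone, where 49 were at 1 TPM or more in each library against 39 in each control library. In MT-treated blastocysts 21 were higher and 27 lower, against the 61.6% and 34.1% of all tested genes. By at least 2-fold on the log2 scale, 16 were higher (51.0% of all tested genes) and 11 lower (19.6% of all tested genes). The median log2 difference was -0.26 over the 49 factors and 1.12 over all tested genes. Every factor that was called also had groups that did not overlap. The counts depend on the scaling: once libraries were aligned on the median of the genes present throughout (median centring), 30 factors were higher and 18 lower, so that higher genes made up 62.5% of the calls in place of 43.8%, as centring takes out a log2 shift of -0.48. All tested genes then had 70.4% higher and 25.4% lower, and higher genes made up 73.5% of their calls in place of 64.4%. After quantile normalization, which gives each library the same distribution of values, 21 were higher and 25 lower, where all tested genes had 55.3% higher and 38.5% lower. The sizes depend on the scaling too: of the 48 called factors, 21 kept their direction but moved by over 1.5 times on the log2 scale under centring, and 25 did under quantile normalization. Of the 39 factors with at least 1 TPM in all 6 libraries, 11 were higher and 27 lower, 28.2% and 69.2%, where the 5988 genes at that level in the whole table had 36.4% higher and 55.6% lower. The median log2 difference of these 39 factors was -0.37, against -0.27 for the 5988 genes.

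**Figure D1:**
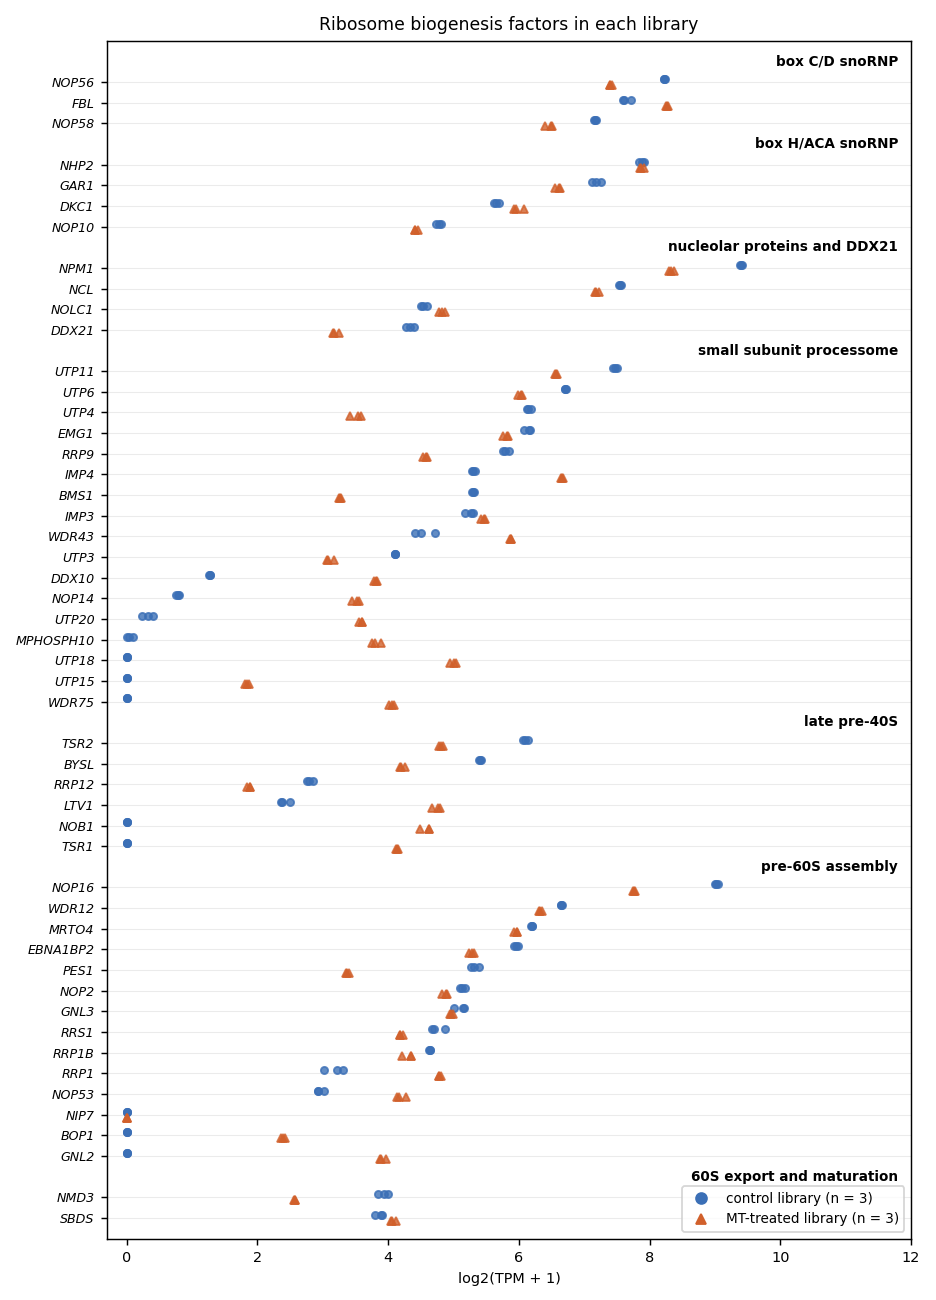
Level of the 50 factors in each library as log2(TPM + 1), in 7 groups by role, with circles for the 3 control libraries and triangles for the 3 MT-treated libraries of each gene. Replicates lie close together, the groups overlap for NHP2 and NIP7, and 8 genes sit at 0 in every control library, of which NIP7 is also at 0 in every MT-treated library.

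In the box C/D snoRNP, which methylates the ribose of ribosomal RNA, the enzyme rose while its scaffold proteins fell. FBL (ENSBTAG00000002579), the methyltransferase fibrillarin, had 209.6, 192 and 194 TPM in control against 306, 303 and 309 TPM after MT. NOP56 had 302, 297 and 296 TPM in control against 167, 171 and 167 TPM after MT. NOP58, which pairs with NOP56 to hold the guide RNA, had 142, 140.4 and 143 TPM in control against 83.8, 88.7 and 89.9 TPM after MT. The 3 values of each group lay apart for each gene, and FBL passed from the level below NOP56 in every control library to the level above it in every MT-treated library. The log2 difference was 0.62 (standard error 0.04) for FBL, -0.82 (standard error 0.02) for NOP56 and -0.69 (standard error 0.03) for NOP58, with adjusted p-values from limma of 4.32e-06, 2.22e-08 and 1.10e-06. FBL made up 31.1% ± 0.853 of the summed TPM of these 3 genes (SNU13, also a core protein, is not among the 50) in control and 54.5% ± 0.539 in MT-treated blastocysts (SD, n = 3 each), and NOP56 46.7% ± 0.508 and 29.96% ± 0.413. Multiplying a library by a constant leaves such shares as they are, whereas quantile normalization does not.

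The box H/ACA snoRNP, which converts uridine to pseudouridine, has 4 core proteins, and they did not move together. DKC1 (ENSBTAG00000013045), the pseudouridine synthase dyskerin, had 49.4, 48.3 and 50.9 TPM in control against 61.3, 59.7 and 66.2 TPM after MT, a log2 difference of 0.33 (standard error 0.05, adjusted p = 4.75e-04 by limma). GAR1, which helps the particle to turn over its substrate, had 138, 144 and 151 TPM in control against 97.7, 97.2 and 92.9 TPM after MT. NOP10, a small protein bound to dyskerin, had 26.5, 26.99 and 25.6 TPM in control against 20.8, 20.3 and 20.2 TPM after MT. GAR1 fell by 0.58 (adjusted p = 1.14e-05 by limma) and NOP10 by 0.35 (adjusted p = 4.84e-05 by limma) on the log2 scale, but NOP10 was 0.13 higher after median centring. The log2 difference of GAR1 shrank to -0.11 after median centring and to -0.30 after quantile normalization. NHP2, which binds the guide RNA, had 228, 234 and 240.2 TPM in control against 231, 232 and 240.2 TPM after MT, and its groups overlapped. It was the sole tested factor that was not called (log2 difference 0.0024, standard error 0.03, adjusted p = 0.931 by limma), and after median centring it was 0.48 higher. DKC1 went from 10.9% ± 0.255 to 15.1% ± 0.625 of the summed TPM of the 4 genes, and GAR1 from 31.8% ± 0.551 to 23.2% ± 0.941 (SD, n = 3 each).

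Of the abundant nucleolar proteins, NPM1 (ENSBTAG00000015316), the nucleolar chaperone nucleophosmin, was the highest of the 50 factors in both groups. It had 670.4, 678 and 667 TPM in control against 319.6, 329.7 and 314 TPM after MT, a 2.09-fold lower mean (log2 difference -1.06, standard error 0.02, adjusted p = 1.79e-08 by limma). NPM1 is known for processed pseudogenes, and how reads shared with such copies were assigned is not given in the sources used here, so its level is uncertain to that extent. NCL, the RNA-binding protein nucleolin, had 184, 187 and 189 TPM in control against 142, 143 and 148 TPM after MT, and was lower as deposited (log2 difference -0.37) and after quantile normalization (-0.12), but 0.11 higher after median centring. DDX21, a helicase that links transcription by RNA polymerase I to rRNA processing, had 18.4, 19.2 and 19.98 TPM in control against 8.03, 8.50 and 7.88 TPM after MT, a 2.36-fold fall. NOLC1, a chaperone that carries snoRNPs through the nucleolus and Cajal bodies, had 21.6, 23.2 and 22.1 TPM in control against 27.3, 26.3 and 28.1 TPM after MT and was the member of this group that rose.

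Of the 17 factors of the small subunit processome, 10 were higher and 7 lower, beside 61.6% and 34.1% of all tested genes. By at least 2-fold 9 were higher and 4 lower, beside 51.0% and 19.6%. Of the 10 higher factors, UTP15, UTP18, WDR75, MPHOSPH10, NOP14 and UTP20 were under 1 TPM in every control library and were tested through the MT-treated libraries alone, and the first 3 of these were listed at 0 there. Over all 50 factors, 7 tested genes were at 0 in every control library, 14.3% of the 49 tested, where 33.8% of all tested genes were. No tested factor was at 0 throughout the MT-treated group, where 3.01% of all tested genes were. NIP7, which was not tested, was at 0 in all 6 libraries, as were 19787 of the 36075 genes listed.

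UTP4, UTP15, WDR43 and WDR75 belong to UTP-A, the subcomplex that binds the start of the precursor first. UTP4 (ENSBTAG00000006347), the gene of an inherited childhood cirrhosis, had 69.7, 68.6 and 71.8 TPM in control against 10.97, 10.7 and 9.66 TPM after MT, the largest fall of the 50 factors (6.71-fold lower, log2 difference -2.64, standard error 0.05, adjusted p = 1.76e-08 by limma). WDR43 had 25.2, 20.4 and 21.7 TPM in control against 57.7, 56.97 and 57.5 TPM after MT, a 2.56-fold rise. WDR75 was listed at 0 throughout the control group and stood at 15.6, 16.0 and 15.1 TPM after MT. UTP15 was also at 0 throughout the control group and stood at 2.51, 2.60 and 2.65 TPM after MT, a low level. UTP4 accounted for 75.8% ± 2.02 of the summed TPM of these 4 genes in control and 12.1% ± 0.669 in MT-treated blastocysts, and WDR43 for 24.2% ± 2.02 and 66.8% ± 0.874 (SD, n = 3 each). The sum itself lay between 88.9 and 94.8 TPM in control and between 84.96 and 86.8 TPM in MT-treated libraries, ranges that did not overlap but lay close together.

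UTP6 and UTP18 belong to UTP-B, which joins after UTP-A. UTP18 (ENSBTAG00000020629) was listed at 0 throughout the control group and stood at 31.2, 31.7 and 29.9 TPM after MT. UTP6 had 103, 103 and 104 TPM in control against 64.1, 65.2 and 62.3 TPM after MT, a log2 difference of -0.69. The groups were apart for both genes, and in opposite directions.

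MPHOSPH10, IMP3 and IMP4 form the MPP10 complex, which bridges the U3 RNA and the precursor. MPHOSPH10 had 0.07, 0.03 and 0 TPM in control against 13.8, 12.9 and 12.5 TPM after MT. IMP4 had 38.2, 37.96 and 39.4 TPM in control against 102, 100.1 and 99.3 TPM after MT, a 2.60-fold rise. IMP3 had 37.7, 35.02 and 38.5 TPM in control against 43.6, 43.2 and 42.0 TPM after MT, a log2 difference of 0.21 (standard error 0.04, adjusted p = 0.00288 by limma), the smallest difference in the processome for TPM as deposited. All 3 rose, and their summed level went from between 73.0 and 77.85 TPM to between 154 and 159 TPM. IMP3 and IMP4 were nearly level with each other in control, at 49.0% ± 0.912 and 50.9% ± 0.921 of the sum, and stood at 27.5% ± 0.180 and 64.2% ± 0.339 in MT-treated blastocysts (SD, n = 3 each).

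A further group of processome factors were at or below a few TPM in control and near 10 TPM or above in MT-treated blastocysts. UTP20, a very large scaffold protein, had 0.26, 0.32 and 0.18 TPM in control against 11.1, 11.1 and 10.7 TPM after MT. NOP14 had 0.73, 0.75 and 0.69 TPM in control against 10.5, 10.7 and 9.90 TPM after MT, and DDX10, a helicase, had 1.40, 1.42 and 1.42 TPM in control against 13.0, 13.2 and 12.8 TPM after MT. The ratios of the means were 43.2-fold, 14.3-fold and 9.19-fold, but the first 2 rest on control values under 1 TPM. After quantile normalization the log2 differences shrank to 0.19 for UTP20 and 0.24 for DDX10, and turned to -0.24 for NOP14.

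The remaining processome factors were lower in MT-treated blastocysts. BMS1 (ENSBTAG00000012878), the GTPase of the particle, had 38.5, 38.8 and 37.8 TPM in control against 8.57, 8.67 and 8.54 TPM after MT, a 4.46-fold fall (log2 difference -2.04, standard error 0.03, adjusted p = 3.15e-09 by limma). RCL1, its partner in the particle and not one of the 50, went the other way, with 0.60, 0.60 and 0.56 TPM in control against 31.8, 28.97 and 28.1 TPM after MT. RRP9, a protein of the U3 snoRNP, had 56.8, 53.2 and 54.2 TPM in control against 23.2, 22.9 and 22.2 TPM after MT, a 2.40-fold fall. UTP3 had 16.3, 16.2 and 16.2 TPM in control against 7.33, 8.01 and 7.46 TPM after MT, and UTP11, the most abundant factor of the processome in control, had 176, 180.0 and 173 TPM in control against 93.6, 94.6 and 92.96 TPM after MT. EMG1, which methylates a pseudouridine of the small subunit RNA, had 70.9, 66.6 and 70.1 TPM in control against 55.4, 55.8 and 53.2 TPM after MT, and its log2 difference of -0.33 was -0.02 and not called after quantile normalization and 0.15 after median centring.

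**Figure D2:**
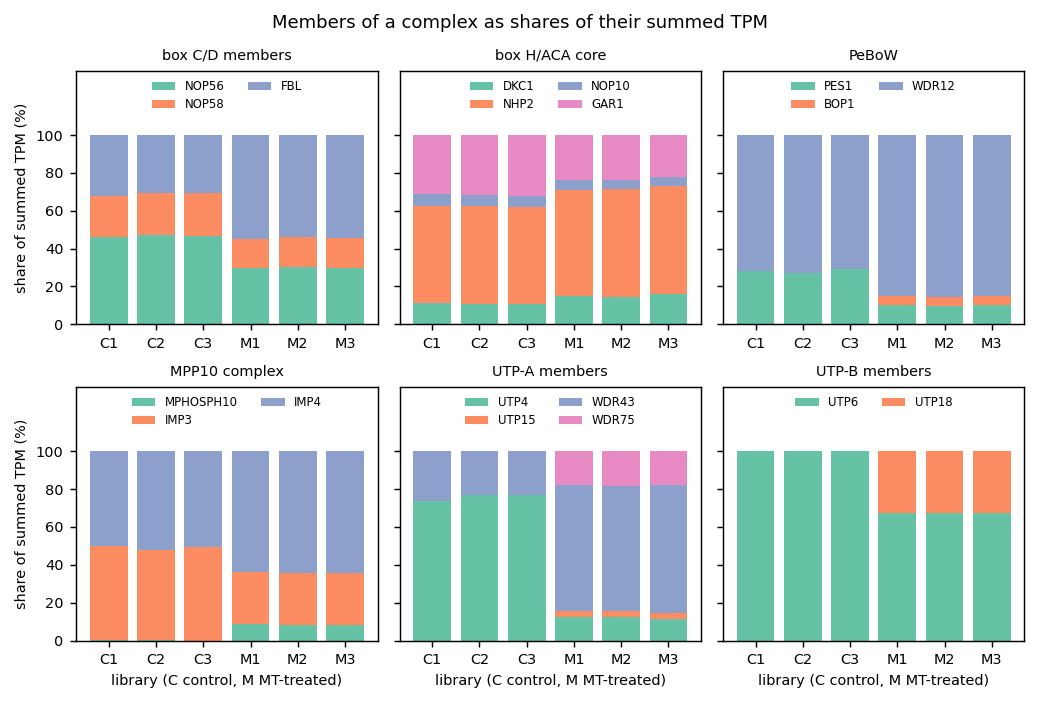
Each stacked bar is 1 library (C1 to C3 control, M1 to M3 MT-treated) and shows what percentage each member contributes to the summed TPM of the members of its complex, for 6 complexes or parts of complexes. The bars are alike within a group and differ between groups: FBL takes 54.5% of the summed level of FBL, NOP56 and NOP58 in MT-treated libraries against 31.1% in control, and UTP4 takes 12.1% of the UTP-A members against 75.8%.

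In late pre-40S maturation, 3 of the 6 factors were higher and 3 lower, beside 61.6% and 34.1% of all tested genes, and 2 of the 3 higher were tested through the MT-treated libraries alone. NOB1 (ENSBTAG00000020633), the endonuclease that makes the final cut of the small subunit RNA, was listed at 0 throughout the control group and stood at 23.7, 21.4 and 23.6 TPM after MT. TSR1, a GTPase-like factor of the cytoplasmic pre-40S particle, was at 0 throughout the control group and stood at 16.8, 16.5 and 16.5 TPM after MT. LTV1, which holds the beak of the subunit until late, had 4.21, 4.64 and 4.11 TPM in control against 26.7, 24.5 and 26.1 TPM after MT, a 5.97-fold rise (log2 difference 2.33, standard error 0.05, adjusted p = 4.35e-08 by limma). The groups lay apart for all 3 genes.

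The 3 that fell were TSR2, BYSL and RRP12. TSR2, which delivers a ribosomal protein to the pre-40S particle, had 65.99, 67.02 and 69.3 TPM in control against 26.4, 27.6 and 26.9 TPM after MT, a 2.50-fold fall. BYSL, which binds pre-40S particles in the nucleus, had 41.9, 41.3 and 40.8 TPM in control against 17.3, 17.2 and 18.2 TPM after MT, a 2.35-fold fall. RRP12, an export factor, was low in both groups, with 5.78, 6.22 and 5.90 TPM in control against 2.58, 2.71 and 2.68 TPM after MT, and its log2 difference of -0.93 had a standard error of 0.04 (adjusted p = 8.58e-07 by limma).

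In pre-60S assembly, 4 of 13 tested factors were higher and 9 lower, beside 61.6% and 34.1% of all tested genes, and NIP7 was listed at 0 in all 6 libraries. Of the 4 higher factors, BOP1 and GNL2 were tested through the MT-treated libraries alone. PES1, BOP1 and WDR12 form the PeBoW complex, which is needed to process the spacer between the large subunit RNAs. PES1 (ENSBTAG00000007728) had 38.6, 37.4 and 41.1 TPM in control against 9.60, 9.27 and 9.39 TPM after MT, a 4.14-fold fall (log2 difference -1.94, standard error 0.04, adjusted p = 3.20e-08 by limma). BOP1 was listed at 0 throughout the control group and stood at 4.26, 4.38 and 4.15 TPM after MT. WDR12, the most abundant of the 3, had 98.6, 100.2 and 98.8 TPM in control against 79.3, 80.5 and 78.4 TPM after MT, and its log2 difference of -0.32 turned to 0.16 after median centring. BOP1 thus made up 4.58% ± 0.0706 (SD, n = 3) of the summed PeBoW level in MT-treated blastocysts, below PES1 and far below WDR12 in each library.

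NOP16 and NOP53, both factors of large subunit assembly, moved in opposite directions. NOP16 (ENSBTAG00000010734), next to NPM1 the most abundant factor in control, had 525, 514 and 511 TPM in control against 213, 216 and 219 TPM after MT, a 2.39-fold fall (log2 difference -1.25, standard error 0.02, adjusted p = 4.34e-09 by limma). NOP53 had 7.07, 6.62 and 6.61 TPM in control against 16.6, 18.2 and 16.9 TPM after MT, a 2.55-fold rise whose log2 difference of 1.23 shrank to 0.27 after quantile normalization. NPM1, NOP16 and NOP56 were the 3 highest factors in control. The 3 highest factors of a library took 39.9% to 40.5% of the summed level of the 50 in control and 31.5% to 31.65% in MT-treated libraries.

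The paralogs RRP1 and RRP1B, homologs of the same yeast factor, also differed in direction. RRP1 had 8.29, 7.12 and 8.95 TPM in control against 26.6, 27.1 and 26.4 TPM after MT, and RRP1B had 23.7, 23.99 and 23.9 TPM in control against 19.4, 17.5 and 19.4 TPM after MT. RRP1B was above RRP1 in every control library and below it in every MT-treated library. The log2 difference was 1.61 (standard error 0.08) for RRP1 and -0.33 (standard error 0.05) for RRP1B, though median centring turned RRP1B to 0.15.

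GNL2 and GNL3 encode related nucleolar GTPases, GNL3 being nucleostemin, a protein of stem and cancer cells. GNL2 was listed at 0 throughout the control group and stood at 14.6, 13.8 and 13.7 TPM after MT. GNL3 had 34.6, 34.2 and 31.01 TPM in control against 30.2, 30.99 and 29.7 TPM after MT. Its groups were apart by a narrow margin, and its call (log2 difference -0.13, standard error 0.05, adjusted p = 0.038 by limma) was the weakest of the 48, was lost in 5 of the 6 fits without a library and turned in direction after median centring (0.35) and quantile normalization (0.07). The related gene GNL3L, not one of the 50, had 50.7, 48.8 and 48.7 TPM in control against 64.0, 62.9 and 67.8 TPM after MT.

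The remaining pre-60S factors were lower by less than 2-fold. EBNA1BP2 had 60.9, 60.1 and 62.1 TPM in control against 38.8, 37.96 and 36.8 TPM after MT. RRS1, which brings the 5S ribonucleoprotein to the large subunit, had 24.6, 25.02 and 28.1 TPM in control against 17.2, 17.8 and 17.1 TPM after MT, and its log2 difference of -0.55 was no longer called after median centring (-0.07, adjusted p = 0.258 by limma). NOP2, an rRNA methyltransferase, had 33.95, 33.1 and 34.98 TPM in control against 28.5, 27.3 and 28.8 TPM after MT, and MRTO4, a stalk placeholder, had 72.4, 71.5 and 72.4 TPM in control against 59.7, 62.0 and 61.5 TPM after MT. These last 2 had log2 differences of -0.26 and -0.24 as deposited but of 0.22 and 0.24 after median centring.

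NMD3 and SBDS act on the large subunit at and after export. NMD3, the export adaptor, had 14.2, 14.96 and 13.3 TPM in control against 4.95, 4.91 and 4.95 TPM after MT, a 2.87-fold fall (log2 difference -1.35, standard error 0.05, adjusted p = 3.26e-07 by limma). SBDS, mutated in Shwachman-Diamond syndrome, had 13.8, 13.9 and 12.9 TPM in control against 15.7, 16.4 and 15.5 TPM after MT, a log2 difference of 0.21 (adjusted p = 0.00272 by limma) that became -0.60 after quantile normalization. Its partner EFL1, not one of the 50, had 16.9, 16.3 and 19.1 TPM in control against 39.3, 34.6 and 36.02 TPM after MT, and EIF6, the factor that SBDS and EFL1 release from the large subunit, had 356, 349.7 and 358 TPM in control against 439, 434 and 447 TPM after MT.

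**Figure D3:**
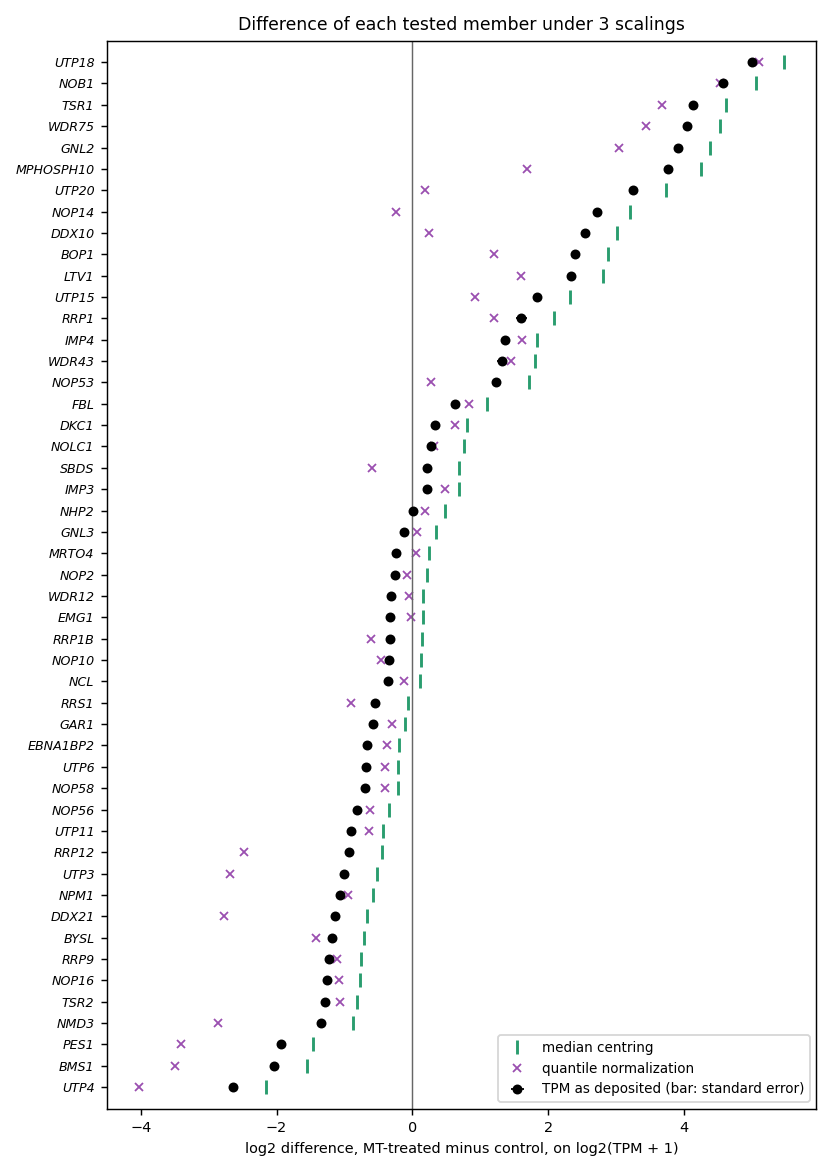
Log2 difference (MT-treated minus control, on log2(TPM + 1)) of the 49 tested factors, ordered by the value from TPM as deposited (black points with standard errors), with the values after median centring (vertical ticks) and quantile normalization (crosses). Between UTP18 at the top and UTP4 at the bottom (-2.64), 8 factors cross 0 under median centring and 4 under quantile normalization.

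The order of the factors was set apart from their differences by ranking them on mean TPM. NPM1 was first in both groups, NHP2 moved from rank 4 to 3, FBL from 5 to 2, and NCL stayed at 6. UTP4 went from rank 13 in control to rank 40 in MT-treated blastocysts, PES1 from 20 to 42, and BMS1 from 22 to 43. IMP4 went from rank 21 to rank 7 and WDR43 from 29 to 15. In control, NHP2 and FBL were neighbours in the order whose values did not overlap. FBL and NCL did not overlap either, but the lowest FBL value of 192 TPM lay close to the highest NCL value of 189 TPM. Across the 49 tested factors, which share the same libraries, Spearman's rho between the control and MT-treated means was 0.742, against 0.470 across all 11953 tested genes. Over the 39 factors present in all libraries it was 0.787, against 0.698 for the 5988 genes at that level. These correlations are descriptions across genes, and genes are not replicates.

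The replicates of a group varied little for these genes. For the 39 factors of at least 1 TPM throughout, the coefficient of variation had a median of 2.68% among control and 2.33% among MT-treated libraries, and reached 11.4% and 6.56%. The widest control spread was that of RRP1, followed by WDR43, and the widest MT-treated spread was that of UTP4. The median absolute log2 difference of these 39 factors was 0.821, next to 0.830 for the 5988 genes present in all libraries.

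**Figure D4:**
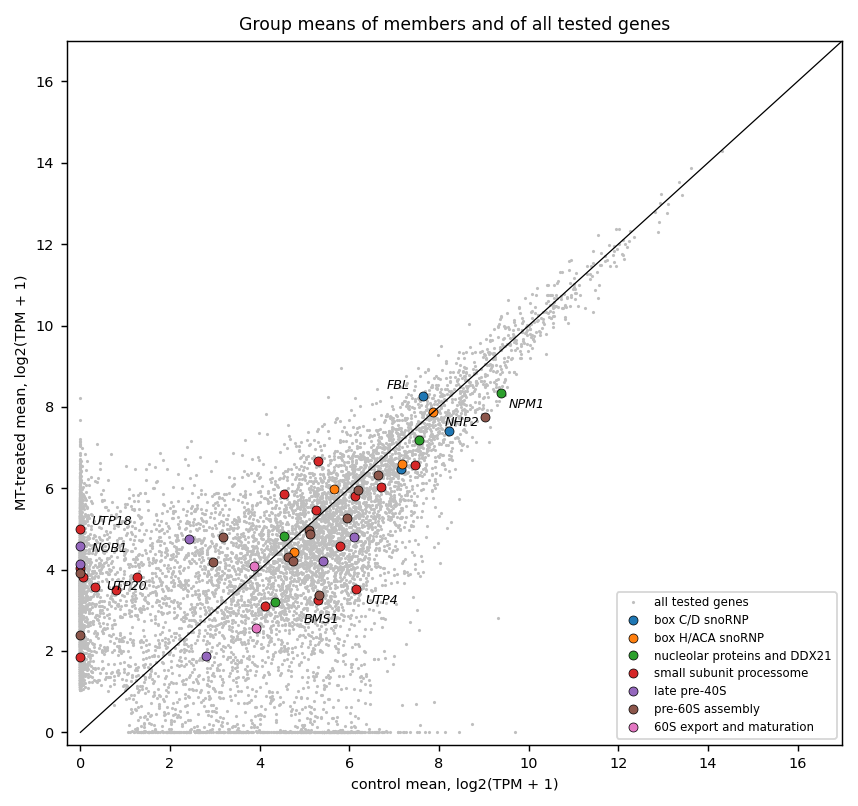
Control mean against MT-treated mean of each tested gene, both as log2 of the mean TPM plus 1 (n = 3 libraries each), with the line of equality, grey points for the 11953 tested genes and coloured points for the 49 tested factors by role. Most abundant factors lie below the line, NHP2 lies on it and FBL above it, and a column of 7 factors including UTP18 and NOB1 lies at a control mean of 0, among many other genes.

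Summed over the 50 factors, the level was 3673 to 3699 TPM in control and 2721 to 2739 TPM in MT-treated libraries, 0.394% ± 0.00125 and 0.299% ± 0.00116 of the listed TPM (SD, n = 3 each). Much of the gap came from NPM1 and NOP16, with means of 672 against 321 TPM and of 517 against 216 TPM. By role, the summed level of the nucleolar proteins with DDX21 was 894 to 907 TPM in control and 497 to 508 TPM in MT-treated libraries, and that of pre-60S assembly 913.5 to 928 and 558 to 563 TPM. Pre-40S factors summed to 118 to 120.1 TPM in control and 110.0 to 114 TPM in MT-treated libraries, a smaller gap. These sums are of TPM as deposited. Median centring takes out a log2 shift of -0.48, so the size and in part the direction of such gaps depend on the scaling. The cytosolic ribosomal protein genes, the products that these factors assemble, summed to 95720 to 96510 TPM in control and 94820 to 95090 TPM in MT-treated libraries. The factors thus stood at 3.84% ± 0.00321 of the ribosomal protein level in control and at 2.88% ± 0.0135 in MT-treated blastocysts (SD, n = 3 each). A constant factor per library leaves this ratio as it is, and quantile normalization does not.

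The rest of the pathway was read from a further list of 122 genes under 123 identifiers, of which 117 were tested. Here 65 were higher and 42 lower, beside 61.6% and 34.1% of all tested genes, and the median log2 difference was 0.34 beside 1.12. After median centring 82 were higher and 27 lower, beside 70.4% and 25.4%. Among the 86 of them with at least 1 TPM in all libraries, 37 were higher and 39 lower, beside 36.4% and 55.6% of the 5988 genes at that level, with a median of -0.03 beside -0.27. The summed level of the whole list was 5313 to 5325 TPM in control and 5491 to 5520 TPM in MT-treated libraries. Whether this list differs from the 50 factors was not tested.

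Among the factors of rDNA transcription, 7 of the 8 tested genes were higher, beside 61.6% of all tested genes. Of these 7, RRN3, TAF1B and TTF1 were at 0 in every control library and were tested through the MT-treated libraries alone. UBTF, the upstream binding factor, was not called, with 7.62, 7.54 and 7.37 TPM in control against 7.17, 2.88 and 6.09 TPM after MT (adjusted p = 0.135 by limma, log2 difference -0.48), and its second MT-treated library was the lowest. TTF1, the terminator of rDNA transcription, was at 0 throughout the control group and stood at 14.9, 13.7 and 12.9 TPM after MT. RRN3, which brings RNA polymerase I to the promoter, was at 0 throughout the control group and stood at 3.31, 3.02 and 3.40 TPM after MT. TCOF1, the Treacher Collins syndrome gene, had 2.64, 2.96 and 2.77 TPM in control against 15.2, 15.1 and 15.9 TPM after MT, and MYC, a regulator of ribosome production, had 1.93, 1.85 and 2.03 TPM in control against 10.8, 7.88 and 10.7 TPM after MT, a log2 difference of 1.86 that turned to -0.78 after quantile normalization. MYBBP1A had the smallest rise of the list for TPM as deposited, with 11.3, 11.4 and 11.7 TPM in control against 22.7, 23.1 and 22.6 TPM after MT.

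In the other lists the directions were mixed, as among the 50. The counts in these lists stand beside 61.6% higher and 34.1% lower among all tested genes. Of 27 further processome genes 15 were higher (55.6%) and 11 lower (40.7%). Among the 15 higher genes, 6 were at 0 in every control library, and others, RCL1 among them, were under 1 TPM there. Both kinds were tested through the MT-treated libraries alone. HEATR1 and NOL11, also of UTP-A, went in opposite directions: HEATR1 was at 0 throughout the control group and stood at 4.23, 4.43 and 4.28 TPM after MT, and NOL11 had 56.9, 57.7 and 58.1 TPM in control against 12.7, 13.5 and 12.9 TPM after MT. PWP2 and WDR3, of UTP-B like UTP18, were at 0 throughout the control group and stood at 8.80, 9.43 and 9.87 TPM and 10.8, 10.3 and 10.9 TPM after MT. TBL3 and WDR36 of the same subcomplex were lower as deposited. TBL3 had 9.53, 9.53 and 8.70 TPM in control against 7.24, 6.42 and 6.68 TPM after MT and a log2 difference of -0.40 (0.08 after median centring and -2.27 after quantile normalization). WDR36 had 43.3, 45.4 and 42.2 TPM in control against 6.55, 6.56 and 7.45 TPM after MT. Its log2 difference was -2.51 (-2.03 after median centring and -3.85 after quantile normalization). NOC4L, the partner of NOP14, had the largest fall of the list, with 62.9, 84.1 and 68.02 TPM in control against 9.20, 16.9 and 0.63 TPM after MT, and its MT-treated values differed widely among themselves. SNU13, the fourth core protein of the box C/D snoRNP, had 30.6, 33.01 and 33.3 TPM in control against 90.8, 87.5 and 89.5 TPM after MT and rose like FBL.

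Of 9 further pre-40S genes 6 were higher (66.7%) and 3 lower (33.3%), near the 61.6% and 34.1% of all tested genes. Among the 6 higher genes, 3 were at 0 in every control library and were tested through the MT-treated libraries alone. RIOK2, a kinase of the pre-40S particle, was at 0 throughout the control group and stood at 22.6, 23.5 and 23.01 TPM after MT, and TSR3, which modifies the small subunit RNA, had 60.4, 60.5 and 57.7 TPM in control against 28.1, 30.99 and 26.9 TPM after MT. PNO1, which sits beside NOB1 on the particle, had 49.3, 49.4 and 50.9 TPM in control against 73.9, 77.9 and 74.5 TPM after MT. Of 45 further pre-60S genes 25 were higher (55.6%) and 15 lower (33.3%), beside the same 61.6% and 34.1%. Among the 25 higher genes, 7 were at 0 in every control library and others were under 1 TPM there. Again both kinds were tested through the MT-treated libraries alone. LAS1L, an endonuclease of the precursor, was at 0 throughout the control group and stood at 39.2, 41.03 and 38.1 TPM after MT, while NOL9, the kinase that works with LAS1L, had 36.1, 37.03 and 34.1 TPM in control and was at 0 throughout the MT-treated group.

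In the RNA exosome, which trims the precursor, 8 of 14 genes were higher (57.1%) and 6 lower (42.9%), beside 61.6% and 34.1% of all tested genes. Among the 8 higher genes, 2 were at 0 in every control library and were tested through the MT-treated libraries alone. EXOSC1 was at 0 throughout the control group and stood at 54.1, 53.7 and 57.6 TPM after MT, and EXOSC9 had 131, 129 and 131 TPM in control against 22.1, 22.1 and 20.4 TPM after MT. Of 11 snoRNP assembly genes 2 were higher (18.2%) and 6 lower (54.5%). All 11 were at 1 TPM or more in every library, where 36.4% of genes were higher and 55.6% lower, and 61.6% and 34.1% of all tested genes were. SHQ1, which chaperones dyskerin, had 33.3, 32.6 and 33.5 TPM in control against 8.18, 9.22 and 8.15 TPM after MT, NAF1, which holds the place of GAR1 during assembly, had 131, 132 and 131 TPM in control against 99.01, 94.7 and 93.2 TPM after MT (-0.45 on the log2 scale, 0.02 after median centring and -0.17 after quantile normalization), and NUFIP1 had 5, 3.73 and 3.98 TPM in control against 9.14, 10.8 and 10.7 TPM after MT. Of the relatives of the factors, NPM3 had 3.29, 3.51 and 3.77 TPM in control against 11.8, 10.8 and 11.4 TPM after MT, against the fall of NPM1, and NPM2, an oocyte nucleoplasmin, was at 0 in all 6 libraries. GNL1 had 54.8, 55.4 and 56.01 TPM in control against 35.7, 36.5 and 34.1 TPM after MT. Quantile normalization turned the log2 differences of NUFIP1 and NPM3 to -1.22 and -0.83.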

How the data were processed

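RNA of pooled bovine blastocysts was measured in 6 libraries, 3 per group. The study names Smart-seq2, while the labels name a TruSeq kit. Per the labels, FastQC 0.11.9, STAR 2.7.9a, featureCounts (Subread 1.6.3), DESeq2 and the build ARS-UCD1.2 were used, whereas the study names ARS-UCD1.3. The authors deposited TPM per gene with 2 decimals, and how TPM were derived from counts is not given in the sources used here. The deposited TPM hold no counts, so no counting error could be given, and the sequencing depths that the study tabulates in a supplement were not used here. All 6 columns were matched to samples by their labels.

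The 50 members, the role groups and the further gene lists were chosen with earlier results of these data known. TPM were transformed to log2(TPM + 1), and genes with at least 1 TPM in at least 3 libraries were fitted over the whole table with lmFit and eBayes (trend) in limma 3.58.1 under R 4.3.3, as no count test fits TPM. P-values were adjusted by Benjamini-Hochberg over 11953 genes at 0.05. No set test was run. Values in every library were given for members at 0 in a whole group, the 8 highest and 8 lowest differences, the smallest difference of each role, the 3 most abundant members and all snoRNP members, and for the other members where space allowed. Genes RCL1, GNL3L, EFL1, EIF6, UBTF, RRN3, TAF1B, TCOF1, MYC, HEATR1, NOL11, PWP2, WDR3, WDR36, TBL3, SNU13, PNO1, NAF1 and NPM2 were added after their values were seen. From each further list the highest and lowest called gene was also named. Replicates of a group came from separate production runs, but the labels do not tie a replicate number to a run. RefSeq names of assembly ARS-UCD2.0 gave gene order only. Alternatives comprised adding 0.1 in place of 1, dropping the filter, requiring 5 TPM, genes above 0 in all libraries, quantile normalization, median centring, equal library totals, no trend, a replicate block and each library left out. The fit was also run on simulated data in which few genes were changed. Most tested genes were called in the real libraries, so that run does not show how the fit performs on them. Python 3.11.15, numpy 2.4.6, pandas 2.3.3, scipy 1.17.1 and matplotlib 3.10.9 were used for summaries and figures.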

Additional observations from a re-analysis of the deposited data

How the results depend on the processing

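TPM gives no depth, so whether a gene listed at 0 was absent or not captured cannot be told apart. The counts of called factors stayed within 1.5 times of 21 higher and 27 lower, and of 16 and 11 by at least 2-fold, under 8 of the 9 alternatives that keep all libraries for the lower genes and under 8 of 9 for the higher ones. Median centring left 3 factors lower by at least 2-fold (14.3% of all tested genes), and 27 lower and 13 lower by at least 2-fold among the other biogenesis genes. Keeping genes above 0 in all libraries left 13 factors higher, 8 of them by at least 2-fold (40.6% and 22.2% of all genes tested under that filter), and 21 other biogenesis genes higher by at least 2-fold, as it removes genes at 0 in control. Median centring reversed MRTO4 (0.24), EMG1 (0.15), GNL3 (0.35), NOP2 (0.22), WDR12 (0.16), NCL (0.11), RRP1B (0.15) and NOP10 (0.13), on the log2 scale. Outside the 50 it reversed NAF1 (0.02), TBL3 (0.08), KRT8 (0.15) and SNORD12C (0.41) of the genes named in the text. Quantile normalization reversed NOP14 (-0.24), SBDS (-0.60), MRTO4 (0.06), GNL3 (0.07), NUFIP1 (-1.22), NPM3 (-0.83), MYC (-0.78) and SNORD12C (0.08). Of the 50, GNL3, EMG1 (-0.02) and NOP2 (-0.09) were then not called. With equal totals GNL3 was not called (-0.09). The cause of these changes was not tested beyond the shift that the scaling itself makes. Without 1 library in turn, 26 to 27 factors were lower and 21 higher, GNL3 ranged from -0.18 to -0.10 and NHP2, which was not called, from -0.02 to 0.02.

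The replicate block gave the same counts, 21 higher and 27 lower factors, and changed no call. Within a run the study handled all treatments at the same time, but the labels do not tie a replicate number to a run. Libraries were therefore treated as unpaired. Same-numbered libraries deviated from their group means with correlations of 0.0942, -0.000741 and 0.15 across 5988 genes, and 1 correlation exceeded 0.1. With 3 libraries per group, these correlations cannot decide whether the numbers mark shared runs. MT-treated libraries 1 and 3 correlated best with the control library of their own number, and library 2 with control library 3.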

Other observations

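The guide RNAs of the snoRNPs were read in addition, after their values were seen, from 380 identifiers named as snoRNAs, scaRNAs or U3. Of these, 354 were at 0 in all 6 libraries and 19 were tested. Of the 19, 6 were at 0 in every control library, 7 in every MT-treated library and 6 were above 0 in both groups, where 33.8% and 3.01% of all tested genes were at 0 in every control and in every MT-treated library. U3, the RNA at the centre of the small subunit processome, appeared under 2 identifiers of opposite direction, with 218, 280.5 and 277 TPM in control and 13.1, 12.5 and 24.7 TPM in MT-treated libraries for the first, and with 0 in every control library and 26.2, 6.26 and 7.48 TPM in MT-treated libraries for the other. Reads of near-identical copies can be assigned to either, so each value is uncertain. SNORD7 had 189.5, 189.7 and 191 TPM in control and 424, 438 and 429.6 TPM in MT-treated libraries, and SNORD12C, with 270.5, 283 and 271 TPM against 267, 255 and 261 TPM, differed least as deposited among the 6 above 0 in both groups. The log2 difference of SNORD12C, -0.07 as deposited, turned to 0.41 after median centring and 0.08 after quantile normalization.

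For the 8 factors at 0 in every control library, the nearest protein-coding genes on either side in the RefSeq order were read by name, also after the values were seen. Of 15 such neighbours in the table, 8 were at 0 in every control library and 7 were not, and 6 of the 8 were at 0 in all 6 libraries, as were 19787 of the 36075 genes listed. NQO1 and MBTD1 were thus the neighbours at 0 in the control group alone, and MBTD1, beside UTP18, had 0.03, 0 and 0.09 TPM after MT. SRR, beside TSR1, had 34.1, 35.5 and 33.4 TPM in control against 0.65, 0.42 and 0.58 TPM after MT, the reverse of TSR1. ANKRA2, beside UTP15, had 95.4, 97.9 and 95.04 TPM in control against 8.72, 8.04 and 7.86 TPM after MT, also the reverse. NQO1, beside NOB1, was at 0 throughout the control group like NOB1 and stood at 17.6, 22.4 and 28.7 TPM after MT. PDF, beside NIP7, was above 0 in all 6 libraries, with 12.1, 11.7 and 10.9 TPM in control against 18.8, 18.97 and 16.3 TPM after MT, while NIP7 was at 0 in each.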
